A study of Mus musculus with 12 samples.

Results

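Ret, its co-receptors Gfra1 and Gfra2, and the stromal receptor tyrosine kinases Pdgfra, Pdgfrb, Fgfr1, Fgfr2, Egfr, Met and Axl were followed in mouse adipocyte precursor cells after a short high-fat diet. These 10 genes, chosen by symbol, are all among the 14398 genes of the count table. Ret was put on the list because it had the most certain diet change of any gene in visceral precursors, so its visceral diet change is a description and was not tested. Receptor tyrosine kinases sit in the plasma membrane, pair up when a ligand binds and phosphorylate each other, which recruits adaptor proteins and starts the RAS-ERK and PI3K cascades. Ret is unusual in that it does not bind its ligands alone. GDNF family ligands are first held by a co-receptor anchored at the cell surface, such as the products of Gfra1 or Gfra2, and the complex then engages Ret. The system is best known from the enteric nervous system and kidney, whereas the PDGF receptors are classical markers of mesenchymal cells and of adipocyte precursors.

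All libraries came from male C57Bl6/J mice aged 6 to 8 weeks, and each library pooled tissue from 3 mice. The groups were perigonadal (visceral) precursors after 3 days on a diet with 60% lard (VWAT_HFD), perigonadal precursors on standard diet, labelled day 0 (VWAT_SD), inguinal subcutaneous precursors after the same 3 days of high-fat diet (SWAT_HFD), and inguinal precursors on standard diet, day 0 (SWAT_SD). Each group had 3 libraries. Labelled day went together with diet, and the labels do not say whether both diets were collected on the same day. Diet and day therefore cannot be told apart in the diet comparisons below. The cells were sorted as CD45-, CD31-, CD29+, CD34+, Sca1+ and both CD24 fractions, and polyA RNA was sequenced. In such bulk libraries, fewer cells of a type and less RNA per cell cannot be told apart in any of the levels below.

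The libraries held 17.6 to 56.1 M counts in genes (M, 1e+06). The first principal component (63.6% of the variance) separated the depots, and the second (15.8%) the diets. VWAT_HFD library 3 stood apart: it lay at 2 on the second component, against -37 and -46 for the other VWAT_HFD libraries and 24.4 to 32.3 for the VWAT_SD libraries. Its summed level of 8 cell cycle markers (Mki67, Top2a and others) was 88.0 CPM (counts per 1e+06), against 208 and 338 CPM in VWAT_HFD libraries 1 and 2. For some of the results that move with this library, values without it are given as well. The summed level of 10 precursor markers was 20955 to 28491 CPM in VWAT_HFD, 19954 to 22562 CPM in VWAT_SD, 48074 to 80859 CPM in SWAT_HFD and 38050 to 41393 CPM in SWAT_SD. Of these 10, 6 were lower and 2 higher in VWAT_HFD than in SWAT_HFD, beside 26.8% of all genes called (edgeR). In VWAT_SD 7 were lower than in SWAT_SD, beside 25.7% of all genes called. With diet, 4 were higher and 0 lower in VWAT_HFD than in VWAT_SD, beside 8.64% of all genes higher and 6.98% lower. In the subcutaneous diet comparison 0 of the 10 passed, beside 1.11% of all genes. The part of these markers in the diet changes below was not tested. The 8 endothelial markers summed to 4.54 to 36.2 CPM. The 10 leukocyte markers summed to 7.36 to 16.8 CPM in 11 libraries and to 37.3 CPM in SWAT_HFD library 2. Without that library the subcutaneous log2 change of Ret, given below, was 0.67 and did not pass (adjusted p = 0.173, edgeR). In that fit 0 of 14310 genes passed in the subcutaneous diet comparison.

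Ret RNA was highest in visceral precursors on the high-fat diet. Ret reached 51.2, 61.0 and 70.9 CPM in the VWAT_HFD libraries, against 20.9, 15.3 and 15.2 CPM in the VWAT_SD libraries. In the subcutaneous depot Ret stood at 35.0, 37.4 and 37.3 CPM in the SWAT_HFD libraries, against 25.8, 19.5 and 22.8 CPM in the SWAT_SD libraries. No library of either high-fat group overlapped with the standard-diet group of its depot, and every VWAT_HFD library lay above every SWAT_HFD library. CPM here are scaled with the trimmed mean of M values (TMM), which corrects library totals for composition.

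In the visceral depot the log2 change of Ret on high-fat diet was 1.83 (SE 0.15), a 3.56-fold difference, and stayed between 1.71 and 1.999 when each library was left out in turn. This is the contrast that chose the gene: it stood first of 14266 genes by p-value. Leaving out VWAT_HFD library 3, which had the highest Ret and the lowest cell cycle markers of its group, left a log2 change of 1.71.

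The subcutaneous diet comparison was between libraries that did not choose the gene. There Ret rose 1.61-fold on the high-fat diet (log2 change 0.69, SE 0.15, 95% interval 0.37 to 1.01, adjusted p = 0.0469 by edgeR's quasi-likelihood test with Benjamini-Hochberg adjustment over 14266 genes). The call sits close to the threshold. It is not free of the choice of Ret, since its spread came from a fit that included the visceral libraries. The log2 change stayed between 0.51 and 0.79 over 19 alternative settings, but 12 of them ended the call, among them the omission of any of the 6 subcutaneous libraries, of VWAT_HFD library 2 or of VWAT_SD library 2 or 3, with adjusted p-values between 0.00152 and 0.204. Without SWAT_HFD library 2, or without SWAT_SD library 1, 2 or 3, 0 genes of all those tested passed in this comparison. With only the 6 subcutaneous libraries in the fit the adjusted p of Ret was 0.0119, and 352 of 13687 genes passed.

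The visceral diet change exceeded the subcutaneous change by 1.14 on the log2 scale (SE 0.21), given as a description because it contains the contrast that chose Ret. Over all genes, no interaction of diet and depot passed the threshold with edgeR, so 0 of the 10 genes passed beside 0% of all genes, while 1026 genes (7.19%) had an unadjusted p under 0.05 and DESeq2 called 35 (0.245%). Without VWAT_HFD library 3, 0.942% of all genes passed. Between depots, Ret was higher in VWAT_HFD than in SWAT_HFD by a log2 difference of 0.74 (SE 0.15). On standard diet the order was the other way round, with a log2 difference of -0.41 (SE 0.15) for VWAT_SD against SWAT_SD and overlapping libraries. Both depot values share libraries with the choice of Ret and were not tested.

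**Figure D1:**
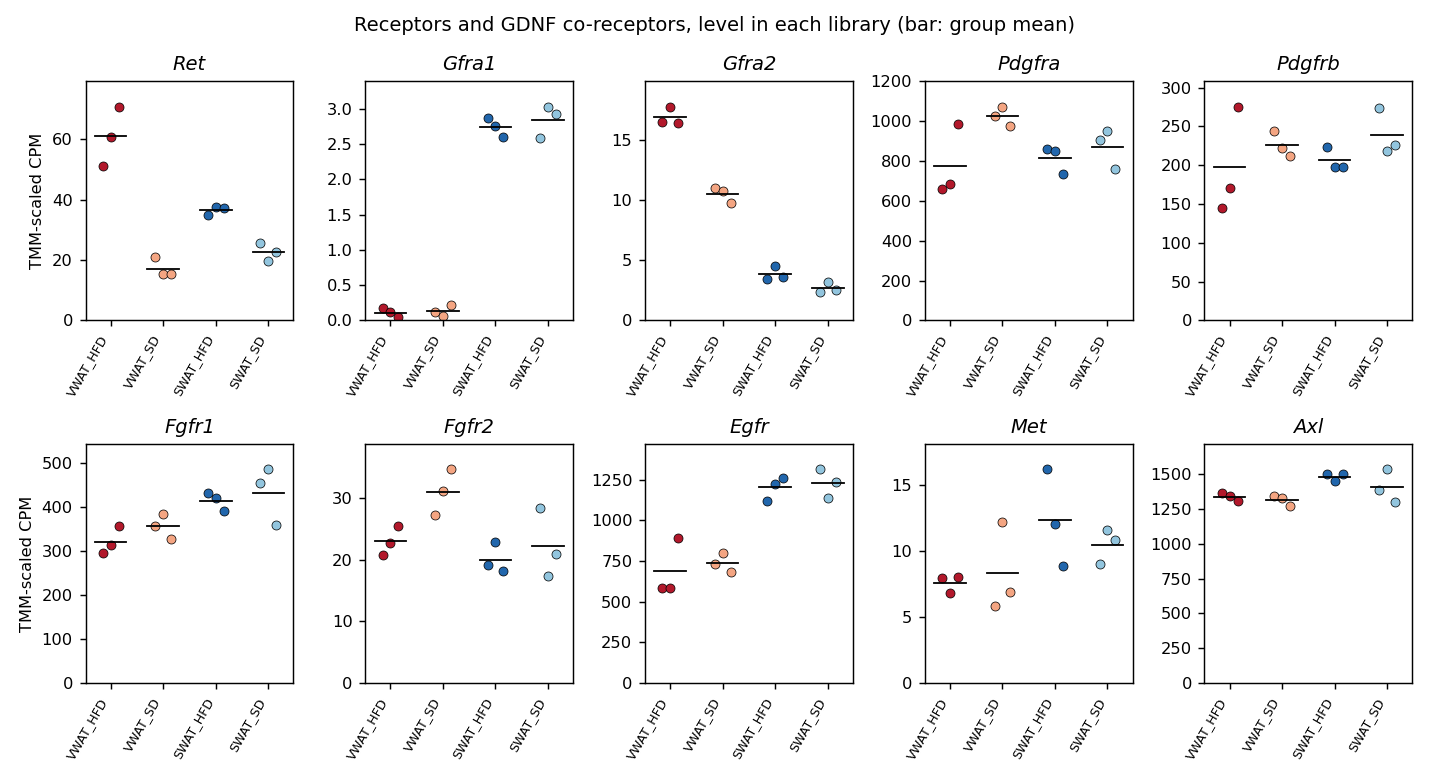
TMM-scaled CPM (vertical axes, each from 0) of Ret, its co-receptors and the other receptors in each of 12 libraries, with a bar at the mean of each group of 3. Ret in VWAT_HFD sits between 51.2 and 70.9 CPM, above every other library, Gfra1 is near the floor in both visceral groups, and Axl differs little between groups.

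Cell cycle markers were also higher on the high-fat diet. All 8 cell cycle markers rose in visceral precursors and 7 of 8 in subcutaneous precursors, beside 8.64% and 0.967% of all genes (edgeR, adjusted p under 0.05). Their summed level was 88.0 to 338 CPM in VWAT_HFD, against 18.3 to 29.5 CPM in VWAT_SD, and 76.1 to 107 CPM in SWAT_HFD, against 9.93 to 16.6 CPM in SWAT_SD. Within VWAT_HFD the orders differed, since the library with the highest Ret had the lowest marker sum. The part of cell division in the Ret levels was not tested.

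**Figure D2:**
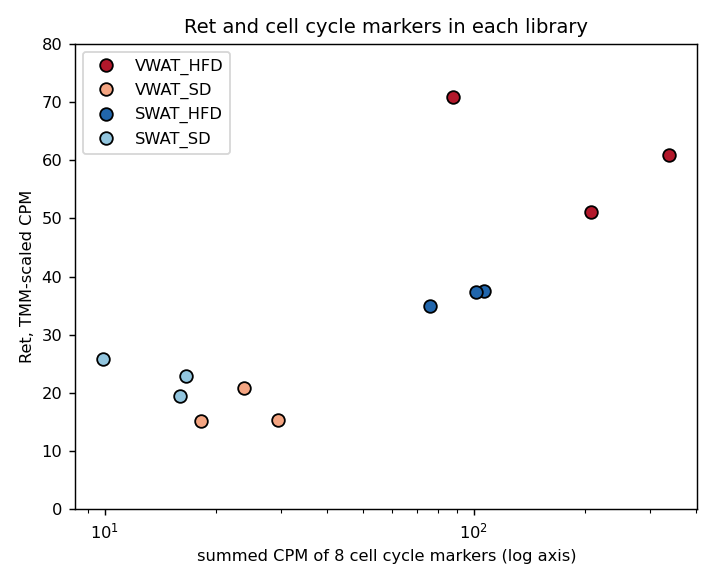
Ret (vertical axis, TMM-scaled CPM) against the summed CPM of 8 cell cycle markers (horizontal log axis), a point per library coloured by group. Both are higher on the high-fat diet in each depot, while the VWAT_HFD library at 70.9 CPM of Ret has a marker sum of 88.0 CPM, below the SWAT_HFD libraries at 107 and 101 CPM.

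The co-receptors divided by depot. Gfra1, whose product binds GDNF, was far lower in the visceral depot: it had 10, 6 and 2 counts in the VWAT_HFD libraries, against 43, 89 and 125 counts in the SWAT_HFD libraries, and 7, 3 and 12 counts in the VWAT_SD libraries, against 135, 140 and 64 counts in the SWAT_SD libraries. The groups did not overlap on either diet. Visceral levels were 23.3-fold lower on high-fat diet (log2 difference -4.54, SE 0.36, adjusted p = 6.69e-07) and 20.4-fold lower on standard diet (-4.35, SE 0.35, adjusted p = 6.48e-07, edgeR). With 22 counts over the VWAT_SD libraries and 339 over the SWAT_SD libraries, counting error alone allows a standard-diet ratio of 13.3 to 33.2.

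Gfra2, whose product prefers neurturin, ran the other way. It stood at 16.5, 17.8 and 16.4 CPM in VWAT_HFD, against 3.41, 4.52 and 3.64 CPM in SWAT_HFD. On standard diet the levels were 11.04, 10.7 and 9.77 CPM in VWAT_SD, against 2.33, 3.23 and 2.52 CPM in SWAT_SD. Gfra2 was thus 4.34-fold higher in the visceral depot on high-fat diet (log2 difference 2.12, SE 0.14, adjusted p = 1.26e-07) and 3.88-fold higher on standard diet (1.96, SE 0.14, adjusted p = 2.59e-07, edgeR). Gfra1 and Gfra2 both kept their depot calls under all 19 alternatives.

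As a share of the counts of both co-receptors, Gfra1 made up 0.262% (2 of 764, exact 95% interval 0.0317% to 0.942%) to 2.22% (12 of 541, 1.15% to 3.84%) in the 6 visceral libraries. In the 6 subcutaneous libraries it made up 37.9% (89 of 235, 31.6% to 44.4%) to 53.8% (64 of 119, 44.4% to 63.0%). These shares are not corrected for gene length, and the intervals cover counting error only. Genes listed as markers of other cells also differed by depot, and which cells expressed them was not tested. On the mesothelial list Wt1 differed most steeply, with log2 differences of 8.15 on high-fat and 7.89 on standard diet. The 6 mesothelial markers in the table, of 8 listed, summed to 106 to 121 CPM in VWAT_HFD, against 2.41 to 4.83 CPM in SWAT_HFD, and to 103 to 131 CPM in VWAT_SD, against 2.75 to 4.59 CPM in SWAT_SD, with 4 of 6 higher and 1 lower in the visceral depot on each diet (edgeR). The 8 mural markers summed to 118 to 136 CPM in VWAT_HFD, against 76.6 to 112 CPM in SWAT_HFD, and to 128 to 155 CPM in VWAT_SD, against 108 to 131 CPM in SWAT_SD. Of these, 3 were higher and 2 lower in VWAT_HFD, and 3 higher and 3 lower in VWAT_SD. With diet, 2 mural markers were higher and 2 lower in VWAT_HFD than in VWAT_SD, beside 8.64% of all genes higher and 6.98% lower. Over all genes, 26.8% were called between depots on high-fat and 25.7% on standard diet. The part of these cells, and of the lower precursor markers, in the depot differences of the receptors and co-receptors was not tested.

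The diet changes of Gfra2 had the same sign as those of Ret. In the visceral depot, where the contrast chose Ret and no test is given, its log2 change was 0.68 (SE 0.13) and the libraries of the diets did not overlap. In the subcutaneous depot the log2 change was 0.52 (SE 0.15, 95% interval 0.20 to 0.84), which did not pass (adjusted p = 0.118, edgeR), although the SWAT_HFD libraries lay above the SWAT_SD libraries. DESeq2 alone among the alternatives called it (adjusted p = 0.0481). The log2 change of Gfra1 in subcutaneous precursors was -0.06 (SE 0.27, 95% interval -0.63 to 0.52, adjusted p = 0.952).

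Egfr, the receptor of EGF family ligands, shared the lower visceral level of Gfra1, though far less steeply. Egfr stood at 583, 584 and 893 CPM in VWAT_HFD, against 1121, 1224 and 1263 CPM in SWAT_HFD. On standard diet it stood at 731, 798 and 681 CPM in VWAT_SD, against 1314, 1138 and 1235 CPM in SWAT_SD. The visceral level was 1.75-fold lower on high-fat diet (log2 difference -0.81, SE 0.15, adjusted p = 0.0014) and 1.67-fold lower on standard diet (-0.74, SE 0.15, adjusted p = 0.00271, edgeR), and the groups did not overlap. These calls held under all 19 alternatives. The 250 bases before the transcription start of the 2 genes with a lower visceral level on both diets are shown from RefSeq (GRCm38.p6), Gfra1 at chr19:58455399-58455648 on the minus strand and Egfr at chr11:16751953-16752202 on the plus strand, 5′ to 3′, with capitals on the motif found:
Gfra1: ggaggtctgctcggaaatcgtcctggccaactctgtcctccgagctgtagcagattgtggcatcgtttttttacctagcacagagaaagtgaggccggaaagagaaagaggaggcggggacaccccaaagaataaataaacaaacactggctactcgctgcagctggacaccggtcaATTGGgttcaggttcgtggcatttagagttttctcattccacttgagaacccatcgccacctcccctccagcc
Egfr: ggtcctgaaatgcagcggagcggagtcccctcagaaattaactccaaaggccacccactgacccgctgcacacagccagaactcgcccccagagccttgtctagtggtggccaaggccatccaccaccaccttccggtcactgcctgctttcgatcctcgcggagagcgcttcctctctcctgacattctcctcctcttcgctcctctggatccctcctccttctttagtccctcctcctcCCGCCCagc

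Gfra1 holds 1 CCAAT box (CCAAT, here on the opposite strand) and Egfr 1 GC box (GGGCGG, here on the opposite strand), searched on both strands, and neither window holds TATAAA. Over 32851 mouse promoter windows of this length, 33.8% hold CCAAT, 32.7% hold GGGCGG and 12.4% hold TATAAA. The windows share no motif of the 3 searched, and their base composition was 52.4% GC in Gfra1 and 60.8% GC in Egfr. Promoters of 6 of the 10 genes were in the RefSeq table.

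Pdgfra and Pdgfrb, the PDGF receptors of mesenchymal cells, gave no depot call with TMM scaling and all libraries in the fit. Pdgfra stood at 657, 683 and 988 CPM in VWAT_HFD, 1028, 1073 and 975 CPM in VWAT_SD, 863, 853 and 734 CPM in SWAT_HFD, and 906, 948 and 762 CPM in SWAT_SD. The VWAT_HFD libraries 1 and 2 were the lowest of all 12, and library 3 lay among the VWAT_SD libraries. The log2 change on high-fat diet in the visceral depot was -0.40 (SE 0.15), and -0.61 without library 3. In the subcutaneous depot the change was -0.10 (SE 0.15, 95% interval -0.42 to 0.23, adjusted p = 0.827, edgeR). Between VWAT_SD and SWAT_SD the log2 difference was 0.23 (SE 0.15, adjusted p = 0.299). All VWAT_SD libraries lay above the SWAT_SD libraries, and with library-size scaling the difference was 0.45 and passed (adjusted p = 0.0326).

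Pdgfrb stood at 145, 171 and 275 CPM in VWAT_HFD and at 244, 222 and 212 CPM in VWAT_SD, with 224, 198 and 198 CPM in SWAT_HFD and 273, 218 and 226 CPM in SWAT_SD. VWAT_HFD library 3 had the highest Pdgfrb of the 12 and libraries 1 and 2 the lowest. The visceral log2 change was -0.20 (SE 0.19), and -0.52 without library 3, while the subcutaneous change was -0.21 (SE 0.19, adjusted p = 0.649, edgeR). Between VWAT_HFD and SWAT_HFD the difference was -0.07 (adjusted p = 0.845), but -0.39 without VWAT_HFD library 3 (adjusted p = 0.0288).

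Depot differences of the FGF receptors lay on opposite sides of 0. Fgfr1, the main FGF receptor of mesenchyme, stood at 295, 314 and 357 CPM in VWAT_HFD, against 433, 420 and 391 CPM in SWAT_HFD, a log2 difference of -0.36 (SE 0.12, adjusted p = 0.0419, edgeR). On standard diet it stood at 357, 384 and 329 CPM in VWAT_SD, against 456, 487 and 359 CPM in SWAT_SD, a difference of -0.28 that did not pass (adjusted p = 0.112), but did without SWAT_SD library 3 (-0.40, adjusted p = 0.0203). The high-fat call was lost in 9 of 19 alternatives, among them library-size scaling without TMM (log2 difference -0.07) and the omission of VWAT_HFD library 1 (-0.30) or 2 (-0.35), VWAT_SD library 1 or 2 (-0.36 each), or SWAT_HFD library 1 (-0.33) or 2 (-0.35).

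Fgfr2, whose splice forms respond to different FGF ligands, was instead higher in VWAT_SD, at 27.3, 31.2 and 34.6 CPM, against 28.3, 17.3 and 20.9 CPM in SWAT_SD (log2 difference 0.48, SE 0.16, adjusted p = 0.0429, edgeR). The libraries overlapped, since SWAT_SD library 1 lay within the visceral range. Same-numbered libraries of these 2 groups deviated together, and with the replicate number as a block the difference no longer passed (adjusted p = 0.0675). The call was lost in 8 of 19 alternatives in all, with a log2 difference of 0.33 without SWAT_SD library 2, 0.40 without VWAT_SD library 3, 0.44 without SWAT_SD library 3, 0.47 without SWAT_HFD library 1, and 0.48 without VWAT_SD library 2 or VWAT_HFD library 2. On high-fat diet Fgfr2 had 20.8, 22.8 and 25.4 CPM in VWAT_HFD and 19.1, 22.8 and 18.1 CPM in SWAT_HFD (difference 0.20, SE 0.16, adjusted p = 0.425). The visceral diet change was -0.43 (SE 0.16), with no overlap of the diets.

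Met is the receptor of hepatocyte growth factor. It had 7.94, 6.80 and 8.02 CPM in VWAT_HFD, against 16.2, 12.0 and 8.84 CPM in SWAT_HFD. These groups did not overlap, but the log2 difference of -0.68 (SE 0.26) did not pass (adjusted p = 0.0696, edgeR), and SWAT_HFD itself spread widely. It passed with DESeq2 (adjusted p = 0.0332) and without VWAT_SD library 2 (-0.68, adjusted p = 0.0206) or SWAT_HFD library 3 (-0.88, adjusted p = 0.0288). On standard diet Met had 5.83, 12.2 and 6.89 CPM in VWAT_SD, against 8.99, 11.6 and 10.8 CPM in SWAT_SD (difference -0.34, SE 0.25, adjusted p = 0.382). Without VWAT_SD library 2, the highest of its group, that difference was -0.72 and passed (adjusted p = 0.0317). Its subcutaneous diet change was 0.22 (SE 0.26, 95% interval -0.34 to 0.77).

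Axl, a receptor that binds Gas6 and takes part in clearing dying cells, showed no difference that passed in any comparison. It stood at 1368, 1348 and 1306 CPM in VWAT_HFD, 1342, 1327 and 1271 CPM in VWAT_SD, 1501, 1451 and 1502 CPM in SWAT_HFD, and 1385, 1536 and 1305 CPM in SWAT_SD. The subcutaneous diet change was 0.08 (SE 0.09, 95% interval -0.13 to 0.28, adjusted p = 0.769, edgeR). The depot difference was -0.15 on high-fat diet (adjusted p = 0.294) and -0.10 on standard diet (adjusted p = 0.491), and both turned positive with library-size scaling, at 0.14 and 0.12.

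**Figure D3:**
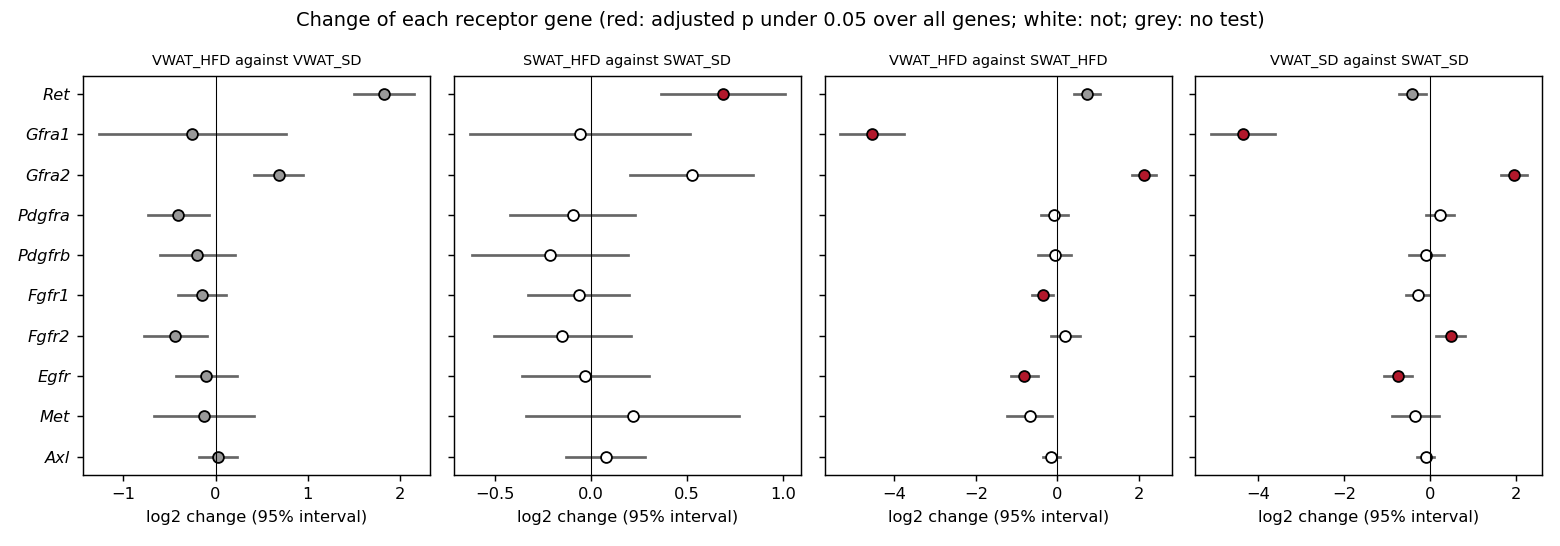
Log2 change of each gene in 4 comparisons with its 95% interval (horizontal axes, each on its own scale). Red points passed an adjusted p of 0.05 over all genes, white points did not, and grey points were not tested; Gfra1 at -4.54 and -4.35 and Gfra2 at 2.12 and 1.96 are the widest depot differences.

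Counted over the list, 2 of 10 genes (Ret and Gfra2, both higher) were past the threshold in VWAT_HFD against VWAT_SD, where 15.6% of all genes were (8.64% higher and 6.98% lower). Without VWAT_HFD library 3 the count was 6 of 10, beside 29.8% of all genes, and with library-size scaling 18.4% of all genes were past it. The genes added without that library were Pdgfra, Pdgfrb, Fgfr2 and Egfr, each lower on high-fat diet. Nothing is read from these counts, since that contrast chose Ret. In SWAT_HFD against SWAT_SD, 1 of 10 passed (Ret), beside 1.11% of all genes (0.967% higher and 0.147% lower), 1.84% with library-size scaling, 3.76% with DESeq2 and 0.0841% with limma voom. Unadjusted p-values under 0.05 were found for 2 of 10 there, beside 14.9% of all genes.

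In VWAT_HFD against SWAT_HFD, 5 of 10 were past the threshold, beside 26.8% of all genes (13.4% in each direction), with Gfra2 higher, Gfra1, Egfr and Fgfr1 lower, and Ret higher as a description. In VWAT_SD against SWAT_SD, 4 of 10 passed, beside 25.7% of all genes (13.2% higher and 12.5% lower), with Gfra2 and Fgfr2 higher and Gfra1 and Egfr lower. Groups without overlapping libraries were found for 3, 2, 7 and 4 of the 10 genes in the 4 comparisons in the order given, beside 33%, 21.8%, 36% and 45.1% of all genes. The median log2 change of the 10 genes was -0.14, -0.04, -0.11 and -0.19 in the same order, and that of all genes -0.02, -0.00147, 0.02 and 0.02.

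Levels were compared between genes per kilobase of exon, using exon lengths of GENCODE on GRCm38, which is not the build the reads were counted on. Axl led in every group, with 305 to 319 CPM per kb in VWAT_HFD and 297 to 313 CPM per kb in VWAT_SD. In VWAT_HFD, Pdgfra (75.0 to 113), Egfr (53.2 to 81.6) and Fgfr1 (56.6 to 68.4) followed, and Egfr overlapped with both of the others. Pdgfrb was next at 26.4 to 50.3 CPM per kb. Ret came sixth in VWAT_HFD at 7.57 to 10.5 CPM per kb, above Gfra2 (4.63 to 5.02) and Fgfr2 (4.06 to 4.96), which did not differ beyond their spread.

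In VWAT_SD, Ret was eighth at 2.25 to 3.09 CPM per kb, overlapping with Gfra2 (2.76 to 3.12) and below Fgfr2 (5.34 to 6.77). In SWAT_HFD, Ret was sixth at 5.17 to 5.54 CPM per kb, above Fgfr2 (3.55 to 4.47), and in SWAT_SD it was seventh at 2.89 to 3.82 CPM per kb, overlapping with Fgfr2 (3.39 to 5.53). Gfra2 was above Met in the visceral groups and below Met in the subcutaneous groups, at 0.964 to 1.28 CPM per kb in SWAT_HFD and 0.660 to 0.912 in SWAT_SD. Gfra1 was last in all groups. Egfr ranked above Pdgfra in both subcutaneous groups and below it in both visceral groups, but the ranges of the pair overlapped in VWAT_HFD and SWAT_SD.

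Among the GDNF family ligands, which signal through Ret, Gdnf rose in visceral precursors on the high-fat diet but stayed very low. It had 26, 34 and 5 counts in the VWAT_HFD libraries, against 2, 2 and 1 counts in the VWAT_SD libraries, and 5, 15 and 10 counts in the SWAT_HFD libraries, against 10, 12 and 4 counts in the SWAT_SD libraries. VWAT_HFD library 3 was again the exception within its group. The visceral diet change passed (log2 change 3.61, SE 0.69, adjusted p = 0.00499, edgeR), also without library 3 (4.04, adjusted p = 0.000129). The pooled counts give a 13.4-fold ratio, with 5.45 to 42.6 allowed by counting error.

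The subcutaneous change of Gdnf was 0.59 and did not pass (adjusted p = 0.703). On standard diet Gdnf was lower in VWAT_SD than in SWAT_SD (log2 difference -2.68, adjusted p = 0.0218), a call lost without VWAT_SD library 1 or 3 or SWAT_SD library 2. Artn, encoding artemin, the ligand matched to the product of Gfra3, fell in the visceral depot: it had 0.472, 0.381 and 0.344 CPM in VWAT_HFD, against 1.10, 0.656 and 1.37 CPM in VWAT_SD (log2 change -1.38, SE 0.33, adjusted p = 0.0155, edgeR). Omission of VWAT_HFD library 2 or VWAT_SD library 3 ended the Artn call. Nrtn, encoding neurturin, the preferred ligand of the Gfra2 product, had 0.455, 0.181 and 0.194 CPM in VWAT_HFD, against 0.663, 0.254 and 0.683 CPM in VWAT_SD (log2 change -0.92, adjusted p = 0.207).

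Gdf15, whose own co-receptor is Gfral, did not pass with diet in either depot (visceral log2 change 0.11, adjusted p = 0.754, subcutaneous 0.62, adjusted p = 0.138). It was lower in the visceral depot on both diets, by -2.65 and -2.13 (adjusted p = 4.99e-07 and 3.08e-06, edgeR). Of the other GDNF family co-receptors, Gfra4 fell in visceral precursors, with 1.63, 1.49 and 2.13 CPM in VWAT_HFD, against 2.82, 3.24 and 4.38 CPM in VWAT_SD (log2 change -0.99, SE 0.19, adjusted p = 0.00488). Ncam1, a cell adhesion molecule that can also bind GDNF, rose there, with 6.08, 9.43 and 1.66 CPM in VWAT_HFD, against 1.41, 1.48 and 1.31 CPM in VWAT_SD (log2 change 2.03, SE 0.45, adjusted p = 0.0101). VWAT_HFD library 3 lay just above the standard-diet range, the change was 2.46 without it, and the call was lost with limma voom and without VWAT_HFD library 2.

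**Figure D4:**
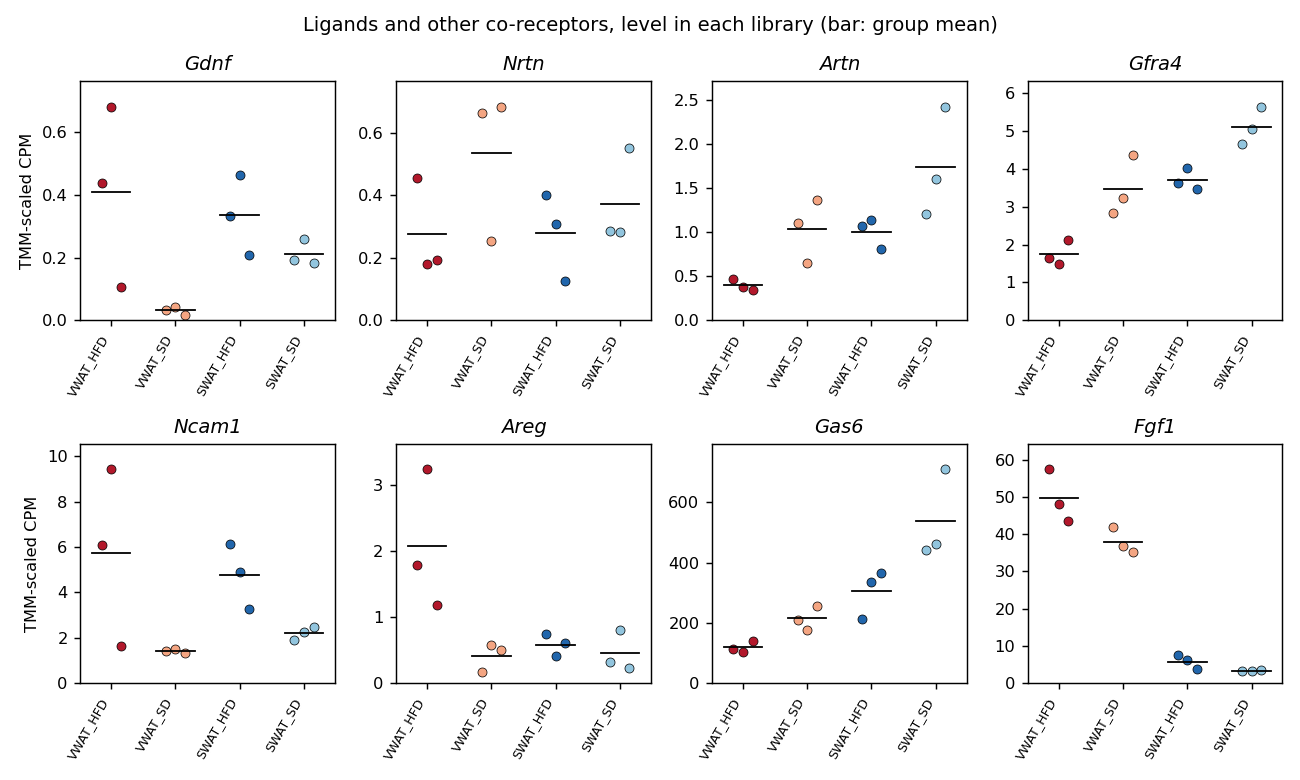
TMM-scaled CPM (vertical axes, each from 0) of GDNF family ligands, co-receptors and 3 further ligands in each of 12 libraries, with a bar at the mean of each group of 3. Gdnf and Ncam1 are high in VWAT_HFD libraries 1 and 2 and close to the standard-diet level in library 3, and Fgf1 separates the depots.

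Of 31 ligands listed beside the receptors, 26 were in the table. In the visceral diet comparison 3 rose (Gdnf, Areg, Fgf21) and 2 fell (Artn, Gas6), beside 8.64% of all genes higher and 6.98% lower. Areg, encoding the Egfr ligand amphiregulin, had 1.79, 3.23 and 1.18 CPM in VWAT_HFD, against 0.170, 0.571 and 0.498 CPM in VWAT_SD (log2 change 2.34, SE 0.49, adjusted p = 0.00785), a call lost without VWAT_HFD library 2. Gas6, encoding the Axl ligand, had 112, 103 and 140 CPM in VWAT_HFD, against 210, 177 and 256 CPM in VWAT_SD (log2 change -0.85, SE 0.22, adjusted p = 0.0228). Leaving out VWAT_HFD library 1 or 2, or VWAT_SD library 1 or 3, ended the Gas6 call. Fgf21, a hormone-like FGF, had overlapping libraries and an adjusted p of 0.0494 that was lost in 12 of 19 alternatives.

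No ligand passed in the subcutaneous diet comparison with edgeR, where 4 of 26 had an unadjusted p under 0.05 and the alternatives called 0 to 2. Gas6 came nearest, at 214, 334 and 365 CPM in SWAT_HFD, against 442, 463 and 709 CPM in SWAT_SD (log2 change -0.82, SE 0.22, adjusted p = 0.105). The next was Fgf1, with a log2 change of 0.74 (adjusted p = 0.124). Pros1, Hgf and the EGF family ligands other than Areg gave no diet call in either depot. The log2 changes in the visceral and subcutaneous comparison were -0.18 and 0.00497 for Pros1, -0.27 and -0.10 for Hgf, and -0.45 and 0.18 for Egf. They were 0.59 and 0.01 for Hbegf, -0.16 and 0.08 for Btc, -0.21 and -0.00162 for Ereg, and -0.91 and -0.18 for Tgfa.

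PDGF and FGF ligands gave no further diet call. The visceral and subcutaneous log2 changes were 0.28 and -0.11 for Pdgfa, -0.02 and 0.85 for Pdgfb, -0.11 and 0.06 for Pdgfc, and -0.04 and 0.29 for Pdgfd. For the FGFs they were -0.14 and -0.27 for Fgf2, -0.37 and -0.21 for Fgf7, -0.86 and 0.01 for Fgf9, -0.51 and -0.23 for Fgf10, -0.14 and -0.24 for Fgf16, 0.23 and 0.19 for Fgf18, and 0.81 and 0.75 for Fgf23. Without VWAT_HFD library 3, 10 ligands passed in the visceral comparison, among them Tgfa (-1.45, adjusted p = 0.000264) and Fgf10 (-0.69, adjusted p = 0.00663).

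Between depots, 3 of 26 ligands were higher and 9 lower in VWAT_HFD, beside 26.8% of all genes called, and 2 were higher and 5 lower in VWAT_SD, beside 25.7%, so that the standard-diet share of the ligands lay near that of all genes. Fgf1, which binds all FGF receptors, stood at 57.5, 48.1 and 43.5 CPM in VWAT_HFD, against 7.49, 6.16 and 3.70 CPM in SWAT_HFD, and at 42.0, 36.8 and 35.2 CPM in VWAT_SD, against 3.35, 3.27 and 3.39 CPM in SWAT_SD. The log2 differences were 3.16 and 3.51 (adjusted p = 9.03e-08 and 3.95e-08, edgeR). Lower in the visceral depot were Pdgfc, a ligand of Pdgfra (-1.41 on high-fat and -1.24 on standard diet, adjusted p = 5.27e-07 and 1.4e-06), and Fgf7, a ligand of an Fgfr2 splice form (-1.24 and -1.08, adjusted p = 1.91e-05 and 6.06e-05).

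Set among all 46 receptor tyrosine kinase genes tested, of 58 listed, 3 rose and 1 fell in visceral precursors on high-fat diet and only Ret passed in subcutaneous precursors, beside 15.6% and 1.11% of all genes. The 3 that rose include Ret as a description, since that contrast chose it. Beside Ret, the visceral calls were Ror2, a Wnt5a receptor (log2 change 0.73, SE 0.16, adjusted p = 0.0096), Tyro3, a relative of Axl (0.70, SE 0.16, adjusted p = 0.0132), and the ephrin receptor Epha1 (-0.58, SE 0.16, adjusted p = 0.0279). Ror2 was lost without VWAT_HFD library 2 or VWAT_SD library 3, Tyro3 without VWAT_HFD library 2 or VWAT_SD library 2 or 3, and Epha1 without VWAT_HFD library 1 or 2 or VWAT_SD library 1 or 2. In subcutaneous precursors the next receptors were Mertk, another relative of Axl (0.57, SE 0.14, adjusted p = 0.0765), and Csf1r, a macrophage receptor (1.25, SE 0.37, adjusted p = 0.133). The highest Csf1r of SWAT_HFD, 10.7 CPM against 4.15 and 4.39 CPM in the other libraries of the group, was in library 2, which also had the highest leukocyte marker sum, and without it the change was 0.65 (adjusted p = 0.574).

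By depot, 12 of the 46 receptors were higher and 12 lower in VWAT_HFD, and 11 were higher and 7 lower in VWAT_SD, beside 26.8% and 25.7% of all genes called. Ret is among the 12 higher in VWAT_HFD, as a description. In both comparisons 16 (34.8%) passed in the same direction, 9 higher and 7 lower, beside 18.8% of all genes. The comparisons share no libraries, but both use the spread estimated in a single fit of all libraries. Ptk7, a Wnt co-receptor, stood at 39.7, 46.9 and 35.0 CPM in VWAT_HFD, against at most 2.34 CPM in any SWAT_HFD library (log2 difference 4.66, adjusted p = 8.01e-10), and differed by 4.63 on standard diet. Epha3, an ephrin receptor, was lower in the visceral depot by -2.82 and -2.46 (adjusted p = 2.3e-08 and 5.71e-08), and Ntrk2, the receptor of brain-derived neurotrophic factor, by -1.56 and -1.40 (adjusted p = 3.96e-07 and 8.55e-07, edgeR). Of the 8 receptors listed at the outset, Egfr alone passed on both diets in the same direction.

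**Figure D5:**
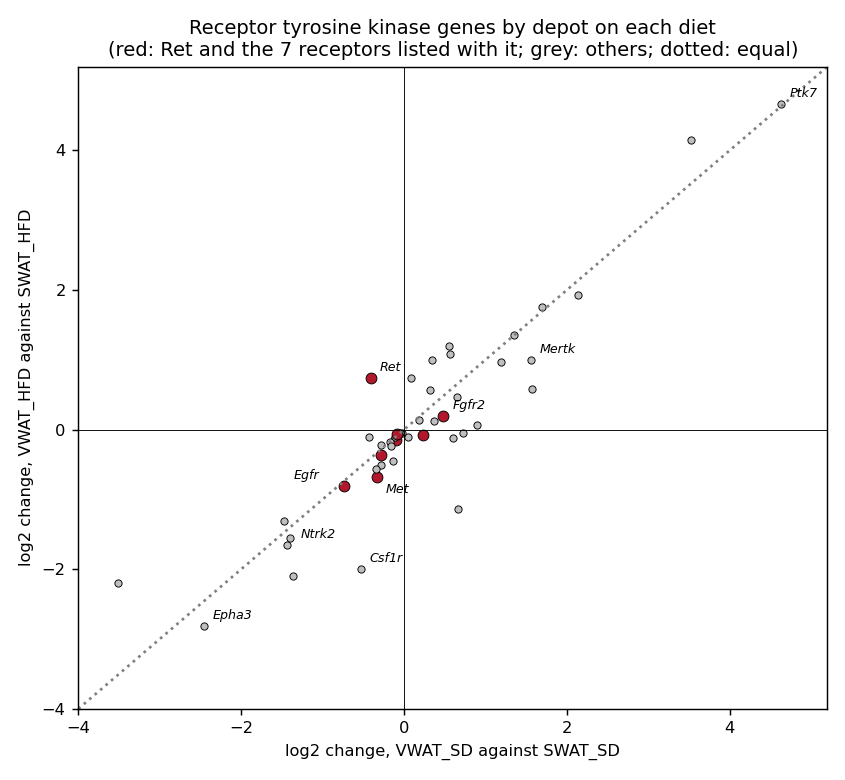
Log2 change between depots of 46 receptor tyrosine kinase genes, on standard diet (horizontal axis) and on high-fat diet (vertical axis), with the dotted line at equal change. Most genes lie near the line, with Ptk7 at 4.63 and 4.66, while Ret lies off it at -0.41 and 0.74.

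Other co-receptors and ligand-presenting proteins gave 5 rises and 3 falls among 15 tested in the visceral diet comparison, beside 8.64% of all genes higher and 6.98% lower. Beside Gfra4 and Ncam1, Cd44, a hyaluronan receptor that can present growth factors, rose to 154, 157 and 118 CPM in VWAT_HFD, against 86.6, 83.4 and 58.5 CPM in VWAT_SD (log2 change 0.91, SE 0.16, adjusted p = 0.00295, edgeR). The heparan sulphate proteoglycan Sdc2 rose by 0.38 (adjusted p = 0.00623), and Kl, the FGF23 co-receptor, by 1.53 with at most 1.22 CPM in any library (adjusted p = 0.00639). In subcutaneous precursors none of the 15 passed, and 4 had an unadjusted p under 0.05, led by Sdc3 (1.31, adjusted p = 0.0654) and Sdc1 (0.65, adjusted p = 0.071).

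By depot, 6 of these 15 were higher and 2 lower in the visceral groups on each diet, beside 26.8% of all genes called on high-fat and 25.7% on standard diet. Nrp2, a neuropilin, was higher by 1.98 and 1.99 on high-fat and standard diet (adjusted p = 6.78e-07 and 5.32e-07), and Sdc3 by 2.55 and 3.05 (adjusted p = 1.4e-05 and 4.54e-06). On high-fat diet Sdc2 (0.58, adjusted p = 7.34e-05) and Kl (2.82, adjusted p = 0.000105) were higher as well, and on standard diet Gpc3 was higher (0.66, adjusted p = 0.00221) and Gpc1 lower (-1.40, adjusted p = 0.000371), both glypicans.

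Adaptors carry the signal from the receptor into the cell. In visceral precursors, where 15.6% of all genes passed, 1 of 19 rose, Dok6, an adaptor that binds Ret (log2 change 1.24, SE 0.35, adjusted p = 0.0309, edgeR), and 1 fell, Frs3, an FGF receptor substrate (-0.51, SE 0.15, adjusted p = 0.0374). Dok6 was low throughout, at 0.607, 0.843 and 0.409 CPM in VWAT_HFD, against 0.323, 0.233 and 0.222 CPM in VWAT_SD, and the calls were lost in 6 and 9 of 19 alternatives. None passed in subcutaneous precursors, where 1.11% of all genes did and where 3 adaptors had an unadjusted p under 0.05 and the lowest belonged to Dok5 (-1.06, adjusted p = 0.148) and Grb10 (0.50, adjusted p = 0.251).

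Between depots 3 adaptors were higher and 3 lower in VWAT_HFD, beside 26.8% of all genes called, and 3 higher and 2 lower in VWAT_SD, beside 25.7%. Dok5 was higher by 2.72 on high-fat and 1.61 on standard diet (adjusted p = 1.3e-05 and 0.000397), and Gab2, a docking protein, by 1.00 and 1.14 (adjusted p = 0.000665 and 0.000235). Pik3r1, the regulatory subunit of PI3 kinase, was lower by -0.80 and -0.68 (adjusted p = 0.00758 and 0.0185). Dok1 was lower on high-fat diet (-0.37, adjusted p = 0.00472), a call lost with library-size scaling, and Shc1 was higher on standard diet (0.29, adjusted p = 0.013), a call lost without VWAT_SD library 3 or SWAT_SD library 1 or 2. The standard-diet call of Pik3r1 was lost with library-size scaling and without VWAT_SD library 1 or 3 or SWAT_SD library 1 or 2.

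Feedback regulators of the pathway changed in both directions. In visceral precursors 3 of 20 rose and 2 fell with the high-fat diet, beside 8.64% of all genes higher and 6.98% lower. Spry1, an inhibitor of receptor signalling that restrains Ret in the kidney, rose to 99.5, 139 and 182 CPM in VWAT_HFD, against 89.1, 76.5 and 86.3 CPM in VWAT_SD (log2 change 0.74, SE 0.18, adjusted p = 0.0141, edgeR). As with Ret, VWAT_HFD library 3 had the highest Spry1, and without it the change was 0.50 (adjusted p = 0.02). Dusp5, an ERK phosphatase, rose by 0.50 (adjusted p = 0.0164), while Spred3 fell by 0.54 (adjusted p = 0.0094) and Errfi1, an inhibitor of Egfr, fell by 0.46 on the log2 scale (adjusted p = 0.0227). Spry1 was lost without VWAT_HFD library 2 or VWAT_SD library 2, and Dusp5 and Errfi1 were lost in 4 and 5 of 19 alternatives.

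In subcutaneous precursors no feedback regulator passed and 4 had an unadjusted p under 0.05, led by the sulfatase Sulf1 (0.52, adjusted p = 0.138) and Errfi1 (-0.32, adjusted p = 0.233). By depot, 7 of 20 were higher and 1 lower in VWAT_HFD, beside 26.8% of all genes called, and 6 were higher and 2 lower in VWAT_SD, beside 25.7%. Dusp6, an ERK phosphatase, stood at 32.0, 36.4 and 59.6 CPM in VWAT_HFD, against 13.8, 15.2 and 14.0 CPM in SWAT_HFD (log2 difference 1.57, adjusted p = 2.2e-05), and differed by 1.72 on standard diet (adjusted p = 8.24e-06). Spry4 was higher by 1.10 and 0.64 (adjusted p = 2.53e-05 and 0.0018), Spred2 by 0.70 and 0.50 (adjusted p = 0.00022 and 0.00293), Spry1 by 1.33 on high-fat diet (adjusted p = 7.96e-05) and Sulf2 by 0.52 on standard diet (adjusted p = 0.00188).

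Genes known to respond to ERK signalling also split. In visceral precursors 5 of 15 rose and 2 fell on the high-fat diet, beside 8.64% of all genes higher and 6.98% lower. Egr3, an immediate early transcription factor, stood at 43.6, 50.1 and 37.9 CPM in VWAT_HFD, against 14.2, 20.3 and 15.2 CPM in VWAT_SD (log2 change 1.41, SE 0.14, adjusted p = 0.000604, edgeR). Ccnd1, encoding cyclin D1, rose by 0.99 (adjusted p = 0.00501), the AP-1 member Fosl1 by 1.21 (adjusted p = 0.00521) and Ier3 by 0.59 (adjusted p = 0.00991), the last lost without VWAT_HFD library 2. The 2 that fell were Fos (-0.63, adjusted p = 0.0244) and Egr1 (-0.63, adjusted p = 0.0415), both immediate early genes, named after their values were seen. Without VWAT_HFD library 3 their changes were -0.89 and -0.93.

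In subcutaneous precursors none of the 15 ERK-responsive genes passed, and 4 had an unadjusted p under 0.05. Egr3 came nearest, with 25.6, 29.6 and 32.9 CPM in SWAT_HFD, against 19.2, 20.4 and 18.6 CPM in SWAT_SD (log2 change 0.60, SE 0.14, adjusted p = 0.067), and Ccnd1 was next with a log2 change of 0.50 (adjusted p = 0.229). By depot, 5 were higher and 3 lower in VWAT_HFD, beside 26.8% of all genes called, and 3 higher and 4 lower in VWAT_SD, beside 25.7%. Egr2 was higher by 1.61 and 1.25 (adjusted p = 2.8e-07 and 2.11e-06) and Etv4 by 2.34 and 1.81 (adjusted p = 4.77e-05 and 0.000469). Etv5 was higher by 1.20 on high-fat diet (adjusted p = 0.000225), Ccnd1 was lower by -1.23 and -1.72 (adjusted p = 0.000237 and 1.68e-05), and Phlda1 was lower by -0.88 on standard diet (adjusted p = 0.000262).

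The median log2 change in the visceral diet comparison was -0.14 for ligands, 0.23 for other co-receptors, -0.01 for adaptors, 0.12 for feedback regulators, 0.13 for ERK-responsive genes and 0.05 for the other receptors, beside -0.02 for all genes. In the subcutaneous comparison these medians lay between -0.02 and 0.15, beside -0.00147 for all genes.

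The genes whose levels ran most like Ret over the 12 libraries, among 11239 genes with a mean of at least 1 CPM, were Nras (Pearson r = 0.963), Col4a2 (0.960), Col4a1 (0.959), Frmd4a (0.955) and Ehd2 (0.952). Nras encodes a small GTPase downstream of receptor tyrosine kinases, Col4a1 and Col4a2 the main chains of basement membrane collagen, Frmd4a a scaffold protein and Ehd2 a protein of caveolae. Nras varied far less in size than Ret, between 49.1 and 65.8 CPM. The genes that ran most opposite were Iqcb1 (-0.953), Ddx20 (-0.938), Hsdl2 (-0.934), Zfp788 (-0.929) and Tspyl1 (-0.924). These values describe 12 libraries that share the 4 groups, and no test is given.

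Among the 10 genes, Gfra1 and Gfra2 ran most opposite over the 12 libraries (r = -0.945), followed by Egfr and Gfra2 (-0.910), while r was 0.850 for Egfr and Gfra1. With the group means taken out, r was -0.036 for Gfra1 and Gfra2, -0.154 for Egfr and Gfra2, and -0.851 for Egfr and Gfra1. For Ret the value over the 12 libraries and that with group means taken out were 0.360 and -0.161 with Gfra2, -0.160 and -0.480 with Gfra1, and -0.577 and 0.352 with Pdgfra. All pairs share the 12 libraries. Values for Gfra1 rest on 2 to 12 counts in each visceral library, where counting error is large. VWAT_HFD library 3 had the lowest Gfra1 (2 counts) and the highest Egfr of its group, and no r was computed without it.

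Ret is also a gene of neurons, so neuronal and glial markers were read beside it. Of 10 neuronal markers, 4 were in the table (Tubb3, Uchl1, Nefl, Nefm), with a summed level of 50.1 to 72.7 CPM in VWAT_HFD, against 43.3 to 48.1 CPM in VWAT_SD, and 29.2 to 33.4 CPM in SWAT_HFD, against 29.0 to 33.0 CPM in SWAT_SD. Nefl, encoding neurofilament light, rose with the visceral diet, at 11.9, 14.9 and 6.24 CPM in VWAT_HFD, against 4.44, 5.01 and 4.56 CPM in VWAT_SD (log2 change 1.24, adjusted p = 0.00895, edgeR), a call lost without VWAT_HFD library 2. The other 6 markers were not analysed here.

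Of 8 Schwann cell markers 5 were in the table, with a summed level of 6.76 to 9.01 CPM in VWAT_HFD, against 9.54 to 12.9 CPM in VWAT_SD, and 34.1 to 36.7 CPM in SWAT_HFD, against 34.8 to 40.6 CPM in SWAT_SD. Mbp, the myelin basic protein gene, fell in the visceral depot (log2 change -1.13, adjusted p = 0.00169, edgeR). By depot, 4 of these 5 markers were lower in the visceral depot on each diet (adjusted p under 0.05, edgeR). Of the 4 neuronal markers, 3 were higher and 0 lower in the visceral depot on each diet. Over all genes, 26.8% were called between depots on high-fat and 25.7% on standard diet. The part of nerve-associated RNA in the Ret, Gfra1 and Gfra2 levels was not tested.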

How the data were processed

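PolyA RNA of sorted adipocyte precursors was sequenced as single 75-base reads in 12 libraries (4 groups of 3). The authors deposited whole-number read counts per gene; per the submitters' processing notes TopHat, HTSeq and mm9 were used, with no versions or strand setting given in the sources used here. The library kit keeps strand, per the labels' protocols, but where genes overlap on opposite strands their counts cannot be told apart without that setting. The 3 entries that name no gene took up 20.4 to 28.1% of a library's counts and do not enter library sizes or tests.

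Genes were filtered by filterByExpr (14266 of 14398 genes kept, 132 removed, all 10 members kept), scaled by TMM and fitted in a single model of the 4 group means with edgeR 4.0.16 (quasi-likelihood, robust, prior degrees of freedom 5.01) in R 4.3.3. P-values were adjusted by Benjamini-Hochberg over all genes tested, with a threshold of 0.05. The model was tested on simulated data. CPM are per 1e+06 TMM-scaled counts. The 10 members, the pathway and marker lists and the tests were chosen with earlier results of these data known. Text names every member, all ligands in the table, up to 4 passing genes of each list and comparison with the lowest p (up to 2 by unadjusted p where none passed), and the 5 genes with the highest and the 5 with the lowest Pearson r with Ret (log2 CPM, prior count 2). Some genes that this rule covers are not reported here. The 19 alternatives were DESeq2 size factors, library size alone, no filter, DESeq2 1.42.0, limma 3.58.1 with voom, a replicate block, only the libraries compared, and each of the 12 libraries left out.

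Same-numbered libraries of VWAT_SD and SWAT_SD deviated together (r = 0.18, 0.18 and 0.40 over genes), which the labels do not explain, so blocked values are given where they change a call there. No 2 libraries were duplicates. The labels do not say that pools were independent beyond pooling 3 mice each, so p-values measure the spread between these libraries.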

Additional observations from a re-analysis of the deposited data

How the results depend on the processing

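Under the 19 alternatives, 849 of 939 values for the 10 genes kept their direction and side of the threshold, 29 lost a call, 23 gained a call and 38 changed sign, and none of the values that changed sign passed in either setting. The count of the 10 genes past the threshold moved as follows. In VWAT_HFD against VWAT_SD it was 2, 4 with library size alone, and 2 to 6 when a library was left out, the 6 without VWAT_HFD library 3. In SWAT_HFD against SWAT_SD it was 1, 0 with library size alone, limma voom or the replicate block, 2 with DESeq2, and 0 to 1 with a library left out. In the diet by depot interaction it was 0, 1 with DESeq2 (Ret), and 0 to 1 with a library left out, the 1 being Ret without VWAT_HFD library 3. Nothing is read from Ret there, since the interaction contains the contrast that chose it. It ranged from 4 to 6 (reported 5) and from 3 to 5 (reported 4) in the depot comparisons on high-fat and standard diet.

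Library size alone moved the median log2 change of all genes to -0.13 and -0.18 in the visceral and subcutaneous diet comparisons and to 0.30 and 0.24 in the depot comparisons on high-fat and standard diet. With it Axl turned to -0.0799 and -0.10 with diet in the visceral and subcutaneous depot, to 0.14 and 0.12 between depots on high-fat and standard diet, and to 0.0205 in the interaction. Likewise Pdgfra turned to 0.22 and Pdgfrb to 0.23 in VWAT_HFD against SWAT_HFD, Pdgfrb to 0.14 in VWAT_SD against SWAT_SD, and Egfr to 0.00185 in the interaction. The Pdgfrb interaction was -0.0454 with limma voom and -0.000148 with the replicate block.

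Leaving out a library gave a range through 0 for these log2 values: visceral diet Egfr -0.34 to 0.00368, Met -0.33 to 0.26 and Gfra1 -0.70 to 0.28; subcutaneous diet Fgfr1 -0.18 to 0.0249, Fgfr2 -0.30 to 0.0664, Egfr -0.084 to 0.0133 and Met -0.00971 to 0.42; VWAT_HFD against SWAT_HFD Pdgfra -0.28 to 0.0337 and Pdgfrb -0.39 to 0.11; VWAT_SD against SWAT_SD Pdgfrb -0.14 to 0.00262. In the interaction the ranges were -0.30 to 0.20 for Pdgfrb, -0.17 to 0.0382 for Fgfr1, -0.31 to 0.0351 for Egfr, -0.54 to 0.0375 for Met, -0.11 to 0.00653 for Axl, -0.65 to 0.34 for Gfra1 and -0.00478 to 0.31 for Gfra2.

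Same-numbered libraries correlated at -0.02 to 0.07 between VWAT_HFD and VWAT_SD, 0.01 to 0.13 between SWAT_HFD and SWAT_SD, where each library correlated best with its own number, and -0.08 to 0.18 between VWAT_HFD and SWAT_HFD, so the replicate block is an alternative only. It ended the subcutaneous Ret call (adjusted p = 0.0519) and the Fgfr1 call on high-fat diet (adjusted p = 0.0507). Over all genes it called 247 in the subcutaneous diet comparison, against 159 without the block. The other lists kept counts in the visceral diet comparison of 1 to 10 ligands (reported 5), 0 to 5 other receptors (3), 4 to 9 other co-receptors (8), 0 to 3 adaptors (2), 1 to 6 feedback regulators (5) and 3 to 8 ERK-responsive genes (7) over the alternatives, and in the subcutaneous comparison 0 to 3 genes of any of these lists (reported 0). The causes were not tested. With 2 to 12 Gfra1 counts in a visceral library, the 95% interval of its log2 diet change there ran from -1.27 to 0.77.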
